A study of Mus musculus with 6 samples.

Results

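A set of 10 genes that mark the progenitors and preadipocytes of white fat was followed in floated adipocytes of mice with or without a Cre that deletes the Hippo kinases LATS1 and LATS2 in fat cells. They were taken by symbol from the deposited counts, and 10 of the 10 were among the 37384 gene symbols of the table and among the 15674 genes tested. *Dpp4*, *Pi16* and *Cd55* mark interstitial progenitors, *Ly6a*, *Cd34*, *Pdgfra*, *Thy1* and *Fap* mark fat stroma more broadly, and *Dlk1* and *Icam1* mark committed preadipocytes.

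RNA was sequenced from adipocytes of inguinal subcutaneous white adipose tissue of male mice at postnatal day 7. The tissue was digested with collagenase and the adipocytes were collected by flotation. L1L2-FF mice were Lats1f/fLats2f/f, and their L1L2-AKO littermates were Lats1f/fLats2f/f and also carried Adipoq-Cre, so both genotypes had the floxed alleles and the Cre was the difference between them. There were 3 libraries per genotype, each from a pool of 4 mice. The *Adipoq* promoter that drives the Cre is active in adipocytes, and the study also places it in some fetal adipocyte precursors. After birth the study describes it as confined to mature adipocytes.

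White adipocytes arise from fibroblast-like cells of the fat stroma. DPP4+ PI16+ cells of the interstitium are held to be upstream of ICAM1+ cells that lie closer to the adipocytes and are committed to the fat lineage, and DLK1 (preadipocyte factor 1) is lost as fat cells mature. LATS1 and LATS2 phosphorylate YAP and TAZ and keep them from working with the TEAD transcription factors, so loss of LATS frees a program of TEAD targets. None of the 10 markers is exclusive to progenitors. CD34, THY1 and ICAM1 are also made by vascular or immune cells, and LY6A (SCA-1) by endothelium.

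The promoters of the 3 interstitial markers are shown because *Pi16* and *Cd55* fell while *Dpp4* was not distinguishable between genotypes. Each is the RefSeq window (GRCm38.p6) from 250 bases before to 50 bases after the annotated start, read 5′ to 3′ on the gene's own strand, at chr2:62412182-62412481 (minus strand) for *Dpp4*, chr17:29318632-29318931 (plus strand) for *Pi16* and chr1:130462695-130462994 (minus strand) for *Cd55*. The *Pi16* window lies inside the gene's GENCODE M21 span, which begins at chr17:29317680, so a start there was not searched. Capitals mark a match to the TEAD motif.
Dpp4: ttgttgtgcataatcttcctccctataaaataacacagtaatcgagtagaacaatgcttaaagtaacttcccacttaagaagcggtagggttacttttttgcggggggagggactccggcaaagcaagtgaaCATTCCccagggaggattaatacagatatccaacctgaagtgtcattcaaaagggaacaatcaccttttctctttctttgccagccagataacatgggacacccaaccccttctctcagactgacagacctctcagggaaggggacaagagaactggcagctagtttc
Pi16: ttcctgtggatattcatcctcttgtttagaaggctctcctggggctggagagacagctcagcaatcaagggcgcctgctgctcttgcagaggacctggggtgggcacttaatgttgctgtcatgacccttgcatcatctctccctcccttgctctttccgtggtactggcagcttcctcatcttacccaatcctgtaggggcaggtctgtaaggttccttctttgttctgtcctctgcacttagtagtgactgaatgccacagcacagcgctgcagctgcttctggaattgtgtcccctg
Cd55: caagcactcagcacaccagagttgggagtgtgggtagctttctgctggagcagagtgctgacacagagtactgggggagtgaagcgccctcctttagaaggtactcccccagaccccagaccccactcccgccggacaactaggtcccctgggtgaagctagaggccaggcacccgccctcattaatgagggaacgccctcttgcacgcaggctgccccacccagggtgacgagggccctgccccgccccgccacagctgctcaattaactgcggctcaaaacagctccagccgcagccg
Of the 10 markers, 7 had a promoter in the table used. The TEAD motif, searched as GGAATG on both strands, occurred in 1 of the 7, that of *Dpp4*, where its first base lay 118 bases before the start and it read as the reverse complement. It occurred in 14.66% of all 32851 promoters of the same length. The AP-1 motif TGANTCA, searched the same way, occurred in 0 of the 7 and in 7.808% of all promoters. These matches describe the letters in the window and say nothing of binding.

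Total counts per library ranged from 30548473 to 32107917. As a check of the labels, *Lats1* fell from 82.9 ± 9.90 to 40.2 ± 1.16 CPM (counts per 1000000, scaled by TMM factors; mean ± SD, n = 3 libraries per genotype, as for all such values). *Lats2* went against the label, from 76.4 ± 8.68 CPM in L1L2-FF to 119 ± 20.6 CPM (adjusted p = 0.0278), so directions are given for the libraries labelled L1L2-AKO. By RT-qPCR the study measured less *Lats1* and *Lats2* mRNA in isolated L1L2-AKO adipocytes of the same age. The counts are per whole gene, so they do not show the loss of a floxed part alone. Why the 2 measures of *Lats2* differ was not tested. The adipocyte gene *Adipoq* was read as a check of the cell type. Per kilobase of exon, *Adipoq* stood at 1526 ± 253 CPM in L1L2-FF, whereas the markers described here stood between 1.73 and 34.9 CPM per kilobase, and *Pecam1*, an endothelial gene, at 83.3 ± 13.6. In the libraries labelled L1L2-AKO *Adipoq* stood at 635 ± 124 CPM per kilobase. *Col3a1*, a gene of stromal fibroblasts, stood at 4772 ± 1149 CPM in L1L2-FF. Which cells it came from was not tested, and the share of stromal RNA was not measured.

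Of the 10 markers, 2 fell, 0 rose and 8 were not past an adjusted p of 0.05 (edgeR). Among all genes tested, 7.18% were called lower and 9.28% higher. At an unadjusted p under 0.05 there were 5 markers on the lower side and 1 on the higher side, against 15.3% and 15.5% of all genes tested, and the count of markers called higher was also 0 with DESeq2 and with limma-voom. The fitted fold change was below 0 for 8 markers, and its median over the 10 was -0.42 on the log2 scale, against -0.02 over all genes tested. The L1L2-FF and L1L2-AKO values did not overlap for 5 markers, 4 with the libraries labelled L1L2-AKO below and 1 with them above, where 18.4% and 18% of all genes tested did so. With 3 libraries per genotype an exact permutation test of a single gene cannot give a two-sided p below 0.1, so the tests reported are those of the fit across all genes. In RNA from a whole preparation, fewer cells of a type and less RNA per cell cannot be told apart.

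**Figure D1:**
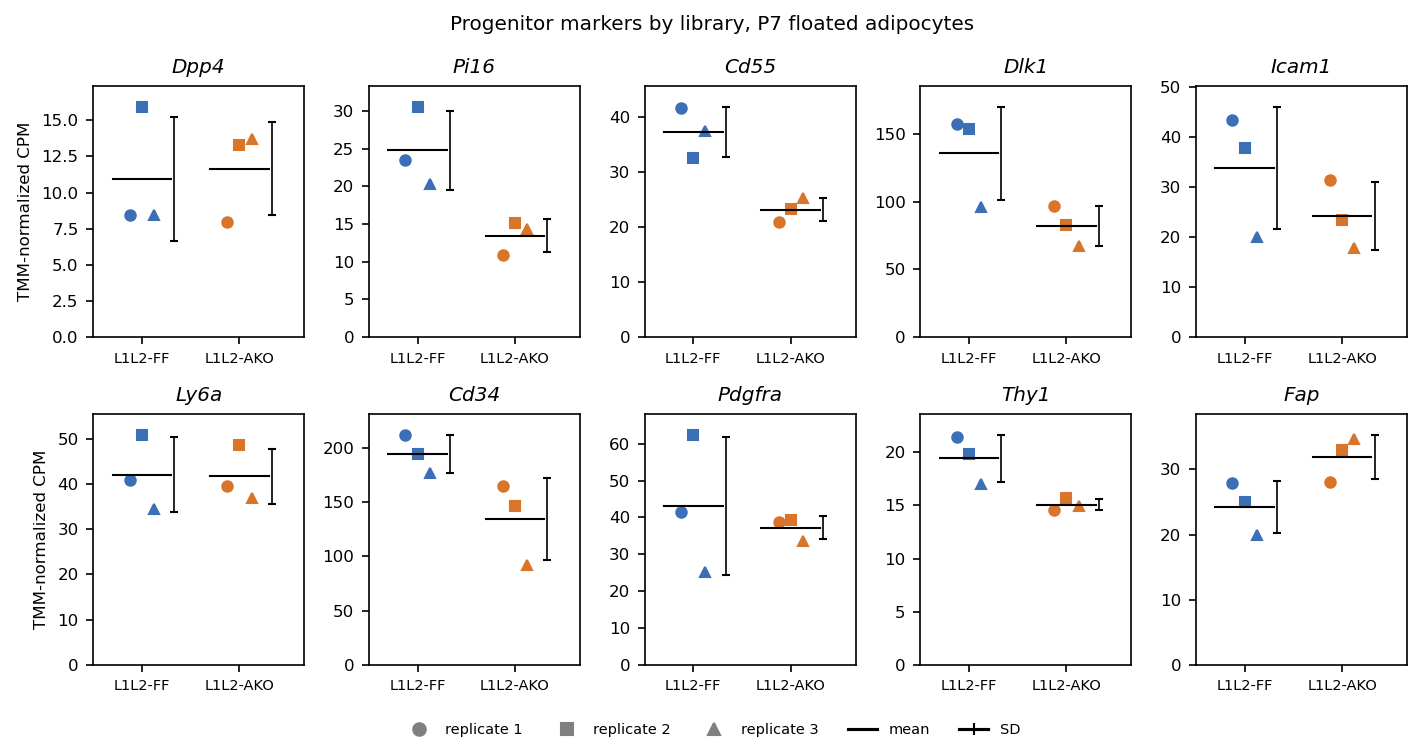
TMM-normalized CPM of the 10 markers in each of the 6 libraries (vertical axes, each starting at 0), with L1L2-FF in blue and the libraries labelled L1L2-AKO in orange; point shape gives the replicate number, the line the mean and the bar the SD of 3 libraries. The 2 groups of points are apart for Pi16, Cd55, Cd34, Thy1 and Fap, and overlap for Dpp4, Dlk1, Icam1, Ly6a and Pdgfra.

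*Pi16* (peptidase inhibitor 16, a secreted or membrane-anchored protein that marks interstitial fibroblasts of many tissues) fell. Its level was 23.5, 30.6 and 20.3 CPM in L1L2-FF replicates 1 to 3 and 10.9, 15.1 and 14.4 CPM in the libraries labelled L1L2-AKO. All of the latter lay below all of the former. The log2 fold change was -0.88 with a standard error of 0.195 and a 95% interval from -1.33 to -0.43 (adjusted p = 0.0195). The gene spans chr17:29317680-29330593 on the plus strand. The adjusted p rose to 0.0576 without L1L2-FF replicate 1, to 0.0502 without L1L2-AKO replicate 2 and to 0.0576 without L1L2-AKO replicate 3.

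*Cd55* (decay-accelerating factor, which takes apart complement convertases on the cell surface) also fell. Its level was 41.7, 32.6 and 37.4 CPM in L1L2-FF and 20.995, 23.2 and 25.3 CPM in the libraries labelled L1L2-AKO, again without overlap. Its log2 fold change was -0.68 with a standard error of 0.135 and a 95% interval from -0.99 to -0.37 (adjusted p = 0.0122). The adjusted p was 0.0544 without L1L2-FF replicate 1 and 0.0576 without L1L2-AKO replicate 2. The gene spans chr1:130439027-130462744 on the minus strand, and 8.0% of the 50-base stretches of its exons also occur in another gene.

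*Dpp4* (dipeptidyl peptidase 4, an ectoenzyme that trims chemokines and incretins) did not follow them. Its level was 8.46, 15.9 and 8.44 CPM in L1L2-FF and 7.96, 13.3 and 13.7 CPM in the libraries labelled L1L2-AKO. The values of both genotypes ran over much the same range, with L1L2-FF replicate 2 the highest of all 6 libraries. The log2 fold change was 0.09 with a 95% interval from -0.62 to 0.80 (adjusted p = 0.881). The lower end of that interval lay just above the value fitted for *Cd55*, and the difference between the genes was not tested. Without L1L2-FF replicate 2, its highest library, the log2 fold change was 0.46 (adjusted p = 0.26), and it was below 0 in 4 of the other fits that left out 1 library. Its count was 262 to 515 per library. The gene spans chr2:62330073-62412231 on the minus strand.

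DPP4 is also CD26, a surface enzyme of T cells. The summed lymphocyte list stood at 9.89, 23.2 and 7.73 CPM in L1L2-FF replicates 1 to 3 and at 11.8, 23.8 and 23.4 CPM in the libraries labelled L1L2-AKO, so the 3 libraries highest in *Dpp4* were also the 3 highest in that list. The same libraries were also the highest in the general stromal fibroblast list described below. It stood at 11654 CPM in L1L2-FF replicate 2 and at 11297 and 12186 CPM in L1L2-AKO replicates 2 and 3. The other libraries lay between 8266 and 10215 CPM. The sums of the F3-positive stroma, partner and mesothelial lists had the same libraries on top. The part of lymphocyte or stromal RNA in the *Dpp4* values was not tested.

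The interstitial markers were also compared with each other inside each library. The ratio of *Pi16* to *Dpp4* counts was 2.78, 1.92 and 2.41 in L1L2-FF against 1.37, 1.14 and 1.05 in the libraries labelled L1L2-AKO. The highest ratio of the latter lay below the lowest of the former. The ratio of *Pi16* to *Pdgfra* likewise separated the genotypes, at 0.621 ± 0.165 and 0.365 ± 0.0754. The ratio of *Cd55* to *Dpp4* did not, since L1L2-FF replicate 2 stood at 2.04 and L1L2-AKO replicate 1 at 2.64. These pairs, like those of the other count ratios given below, were chosen after the values were seen and carry no test.

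**Figure D2:**
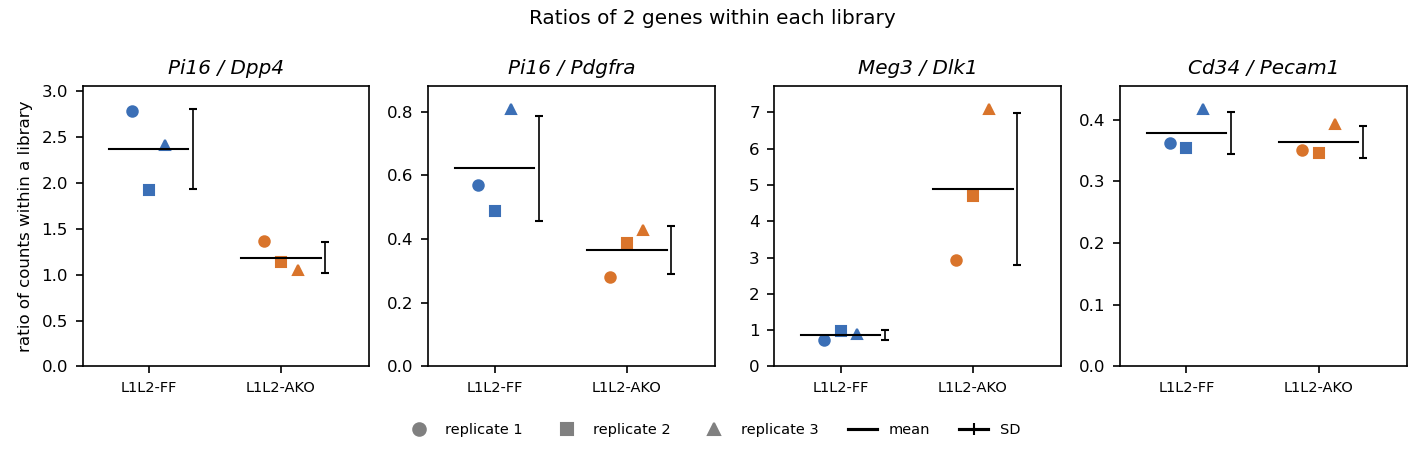
Ratio of the counts of a pair of genes within each library (vertical axes, each starting at 0), for Pi16 over Dpp4, Pi16 over Pdgfra, Meg3 over Dlk1 and Cd34 over Pecam1; blue is L1L2-FF, orange the libraries labelled L1L2-AKO, the line the mean and the bar the SD of 3 libraries. The first 3 ratios separate the genotypes, and Cd34 over Pecam1 overlaps, at 0.378 in L1L2-FF and 0.363 in the libraries labelled L1L2-AKO. The pairs were chosen after the values were seen and carry no test.

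*Dlk1*, which keeps preadipocytes from differentiating, was at 157, 154 and 96.3 CPM in L1L2-FF and at 96.4, 82.4 and 67.3 CPM in the libraries labelled L1L2-AKO. L1L2-FF replicate 3 lay just below L1L2-AKO replicate 1, so the groups touched. The log2 fold change was -0.73 with a 95% interval from -1.22 to -0.23, and the adjusted p of 0.0533 missed the threshold. *Dlk1* passed with DESeq2 (adjusted p = 0.0148), with no filter on low counts (adjusted p = 0.0348) and without L1L2-FF replicate 3 (-0.92, adjusted p = 0.0154).

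*Dlk1* lies at chr12:109452823-109463336 on the plus strand in an imprinted cluster, where *Dlk1* is expressed from the paternal and the noncoding RNA *Meg3* from the maternal chromosome. *Meg3* begins 77664 bases downstream of *Dlk1*, with 0 protein-coding genes between them. It rose, from 117 ± 32.9 CPM to 382 ± 97.8 CPM, a log2 fold change of 1.71 (adjusted p = 0.00402). The ratio of *Meg3* to *Dlk1* counts was 0.723, 0.981 and 0.886 in L1L2-FF against 2.92, 4.68 and 7.08 in the libraries labelled L1L2-AKO. Every library of L1L2-FF thus held more *Dlk1* than *Meg3* reads, and every library labelled L1L2-AKO held more *Meg3*. The exons of *Meg3* cover 18089 bases and those of *Dlk1* 5657, so read numbers do not show which gene stood at the higher level.

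*Icam1* (an adhesion receptor for leukocyte integrins, and a marker of committed preadipocytes and of endothelium) was at 43.5, 37.9 and 20.1 CPM in L1L2-FF and at 31.4, 23.5 and 17.9 CPM in the libraries labelled L1L2-AKO. The groups overlapped, and the log2 fold change was -0.48 with a 95% interval from -1.17 to 0.21 (adjusted p = 0.333). The ratio of *Icam1* to *Pecam1* counts was 0.0636 ± 0.0143 in L1L2-FF and 0.0662 ± 0.0105 in the libraries labelled L1L2-AKO.

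**Figure D3:**
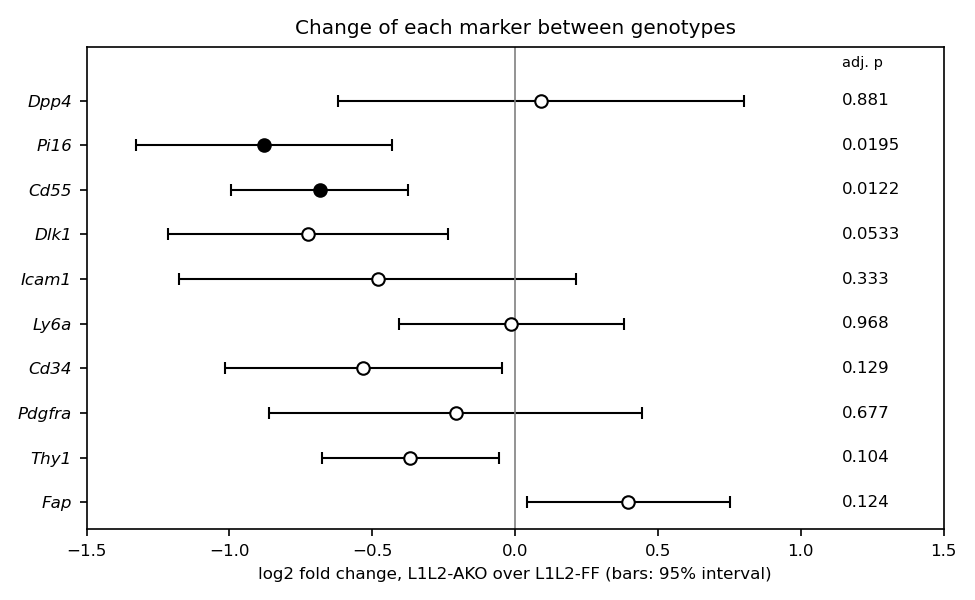
Fitted log2 fold change of each marker (horizontal axis, libraries labelled L1L2-AKO over L1L2-FF) with its 95% interval as a bar and its edgeR adjusted p at the right; filled points are past an adjusted p of 0.05. Pi16 and Cd55 are filled, at -0.88 and -0.68, Dlk1 lies between them at -0.73 with an adjusted p of 0.0533, and Fap is at 0.40.

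Among the broad stromal markers, 0 of 5 passed the threshold in edgeR, and 0 of 5 with DESeq2 or limma-voom, while 3 of 5 had an unadjusted p under 0.05, as did 30.8% of all genes tested. *Cd34* (a sialomucin of progenitors and of endothelium) was at 212, 194 and 177 CPM in L1L2-FF and at 165, 146 and 91.8 CPM in the libraries labelled L1L2-AKO. The groups did not overlap. Here the log2 fold change was -0.53 with a 95% interval from -1.02 to -0.05 (adjusted p = 0.129).

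Because endothelium also makes CD34, its marker list is given beside *Cd34*. Summed over its 10 genes the list stood between 1895 and 2509.8 CPM in L1L2-FF and between 1111 and 2414 CPM in the libraries labelled L1L2-AKO, with L1L2-AKO replicate 3 the lowest in both the list and *Cd34*. The ratio of *Cd34* to *Pecam1* counts lay between 0.346 and 0.417 in all 6 libraries. The part of endothelial RNA in the *Cd34* values was not tested.

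*Thy1* (CD90, a membrane glycoprotein of fibroblasts, nerve and T cells) was at 21.4, 19.8 and 17.0 CPM in L1L2-FF and at 14.6, 15.7 and 14.9 CPM in the libraries labelled L1L2-AKO. The groups did not overlap, and the log2 fold change was -0.37 with a 95% interval from -0.68 to -0.06 (adjusted p = 0.104). *Fap* (fibroblast activation protein, a serine protease related to DPP4) was at 27.8, 25.0 and 19.9 CPM in L1L2-FF and at 28.1, 33.0 and 34.7 CPM in the libraries labelled L1L2-AKO. It was the only one of the 10 markers whose values in the libraries labelled L1L2-AKO all lay above those of L1L2-FF, though L1L2-FF replicate 1 and L1L2-AKO replicate 1 came close. Its log2 fold change was 0.40 with a 95% interval from 0.04 to 0.75 (adjusted p = 0.124).

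*Fap* and *Dpp4* are neighbours on the minus strand of chromosome 2. *Fap* spans chr2:62500943-62574075, and the 88711 bases between the genes hold 1 other protein-coding gene, *Gcg*. The ratio of *Fap* to *Dpp4* counts was 2.41 ± 0.862 in L1L2-FF and 2.84 ± 0.591 in the libraries labelled L1L2-AKO, and the groups overlapped.

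*Pdgfra*, the receptor for PDGF-A and the most widely used marker of fat stroma, was at 41.4, 62.5 and 25.2 CPM in L1L2-FF and at 38.8, 39.2 and 33.7 CPM in the libraries labelled L1L2-AKO. The L1L2-FF libraries enclosed all 3 values of the other genotype. Its log2 fold change was -0.21 with a 95% interval from -0.86 to 0.44 (adjusted p = 0.677), and without L1L2-FF replicate 2 it was 0.16. *Ly6a* (SCA-1, a surface antigen of progenitors) was at 41.0, 50.9 and 34.4 CPM in L1L2-FF and at 39.5, 48.5 and 36.9 CPM in the libraries labelled L1L2-AKO. The 2 ranges nearly coincided, with a log2 fold change of -0.01 and a 95% interval from -0.41 to 0.38 (adjusted p = 0.968). Of the 50-base stretches of *Ly6a* exons, 19.0% also occur in another gene, so its count may share reads with its relatives.

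Within L1L2-FF most markers shared their lowest library but not their highest. Replicate 3 was the lowest L1L2-FF library for 9 of the 10 markers, *Cd55* being the exception. Replicate 2 was the highest for 4 (*Dpp4*, *Pi16*, *Ly6a* and *Pdgfra*), and replicate 1 for the other 6. Replicate 2 was also the highest L1L2-FF library in the summed level of 6 of 8 cell type lists, the endothelial and mural lists being the exceptions. Whether those cells had a part in the marker values was not tested.

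Levels can be compared between genes only per kilobase of exon. In L1L2-FF the order of mean CPM per kilobase was *Ly6a* (34.9), *Cd34* (26.6), *Dlk1* (24.0), *Icam1* (7.76), *Cd55* (7.67), *Thy1* (6.49), *Pdgfra* (4.29), *Fap* (4.28), *Pi16* (3.90) and *Dpp4* (1.73). Neighbours in this order overlapped between libraries except at 2 steps, from *Dlk1* (lowest library 17.0) to *Icam1* (highest 9.98) and from *Pi16* (lowest 3.20) to *Dpp4* (highest 2.52). In the libraries labelled L1L2-AKO, *Fap* moved up to place 4, at 5.63 ± 0.603 CPM per kilobase, and *Cd55* down to place 7, at 4.78 ± 0.448. The range of *Fap* over these libraries lay within that of *Icam1*, 4.10 to 7.20, and the range of *Cd55* overlapped that of *Thy1*. There the range of *Pi16*, at 2.12 ± 0.354, overlapped that of *Dpp4*, at 1.84 ± 0.507. Within each of these libraries *Pi16* was still the higher, at 1.72, 2.38 and 2.27 against 1.26, 2.11 and 2.17 in replicates 1 to 3.

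The wider progenitor, stromal and partner genes were read from 5 lists with 58 genes, of which 13 rose, 6 fell and 39 did not pass the threshold. Over all genes tested 9.28% were called higher, 7.18% lower and 30.8% had an unadjusted p under 0.05 (edgeR). The counts of these lists and of the cell type lists below stand beside those shares. The wider interstitial list went both ways, with 3 of 10 higher and 2 lower. *Sema3c*, a secreted guidance cue, rose from 74.7 ± 25.5 to 228 ± 48.8 CPM (log2 fold change 1.61, adjusted p = 0.00659). *Limch1*, an activator of non-muscle myosin, rose from 44.1 ± 14.7 to 163 ± 58.0 CPM (1.88, adjusted p = 0.00698), and *Anxa3* also rose (0.92, adjusted p = 0.00342). *Wnt2*, a Wnt ligand, fell from 2.23 ± 0.275 to 1.18 ± 0.112 CPM (-0.92, adjusted p = 0.0481), and *Efhd1*, a mitochondrial calcium sensor, fell from 8.80 ± 2.07 to 4.74 ± 0.542 CPM (-0.89, adjusted p = 0.0274). The call for *Wnt2* was lost in 5 of the 6 fits without 1 library (adjusted p up to 0.156), all but that without L1L2-FF replicate 2, and that for *Efhd1* in 4 (up to 0.0988), the fits without L1L2-FF replicate 1 or any of the L1L2-AKO replicates.

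In the wider committed preadipocyte list 1 of 9 rose and 1 fell. *Ggt5*, a glutamyl transferase that acts on leukotriene C4, rose from 13.3 ± 1.47 to 65.2 ± 27.4 CPM (2.29, adjusted p = 0.00273). *Pparg*, the nuclear receptor that drives fat cell formation, fell from 375 ± 11.4 to 249.8 ± 12.6 CPM (-0.59, adjusted p = 0.0122), a call lost without L1L2-FF replicate 1 or L1L2-AKO replicates 2 or 3 (adjusted p up to 0.0697). The most abundant genes of the list, *Lpl* and *Fabp4*, had log2 fold changes of 0.52 (adjusted p = 0.272) and -0.30 (adjusted p = 0.389), and both are also adipocyte genes.

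In the list of F3-positive regulatory stroma 0 of 6 passed in either direction with edgeR, 3 had an unadjusted p under 0.05, and DESeq2 called 1 higher where limma-voom called 0. *F3* (tissue factor) itself was at 25.0 ± 5.18 and 60.1 ± 29.2 CPM (1.27, adjusted p = 0.0548), and *Meox2*, the most abundant member, at 76.7 ± 3.15 and 48.7 ± 18.9 CPM (-0.66, adjusted p = 0.130). Among 12 general stromal fibroblast genes 2 rose and 2 fell. *Cd9* (0.96, adjusted p = 0.0290) and *Itgb1* (0.52, adjusted p = 0.0389) rose, while *Nt5e* (CD73; -1.36, adjusted p = 0.00865) and *Mfap4* (-1.32, adjusted p = 0.00738) fell. *Itgb1* lost its call in each of the 6 fits without 1 library (adjusted p up to 0.138) and *Cd9* in 4 (up to 0.106), the fits without L1L2-FF replicate 1 or 3 or L1L2-AKO replicate 2 or 3. The abundant *Col3a1* and *Vim* had log2 fold changes of -0.07 (adjusted p = 0.883) and 0.58 (adjusted p = 0.0976).

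**Figure D4:**
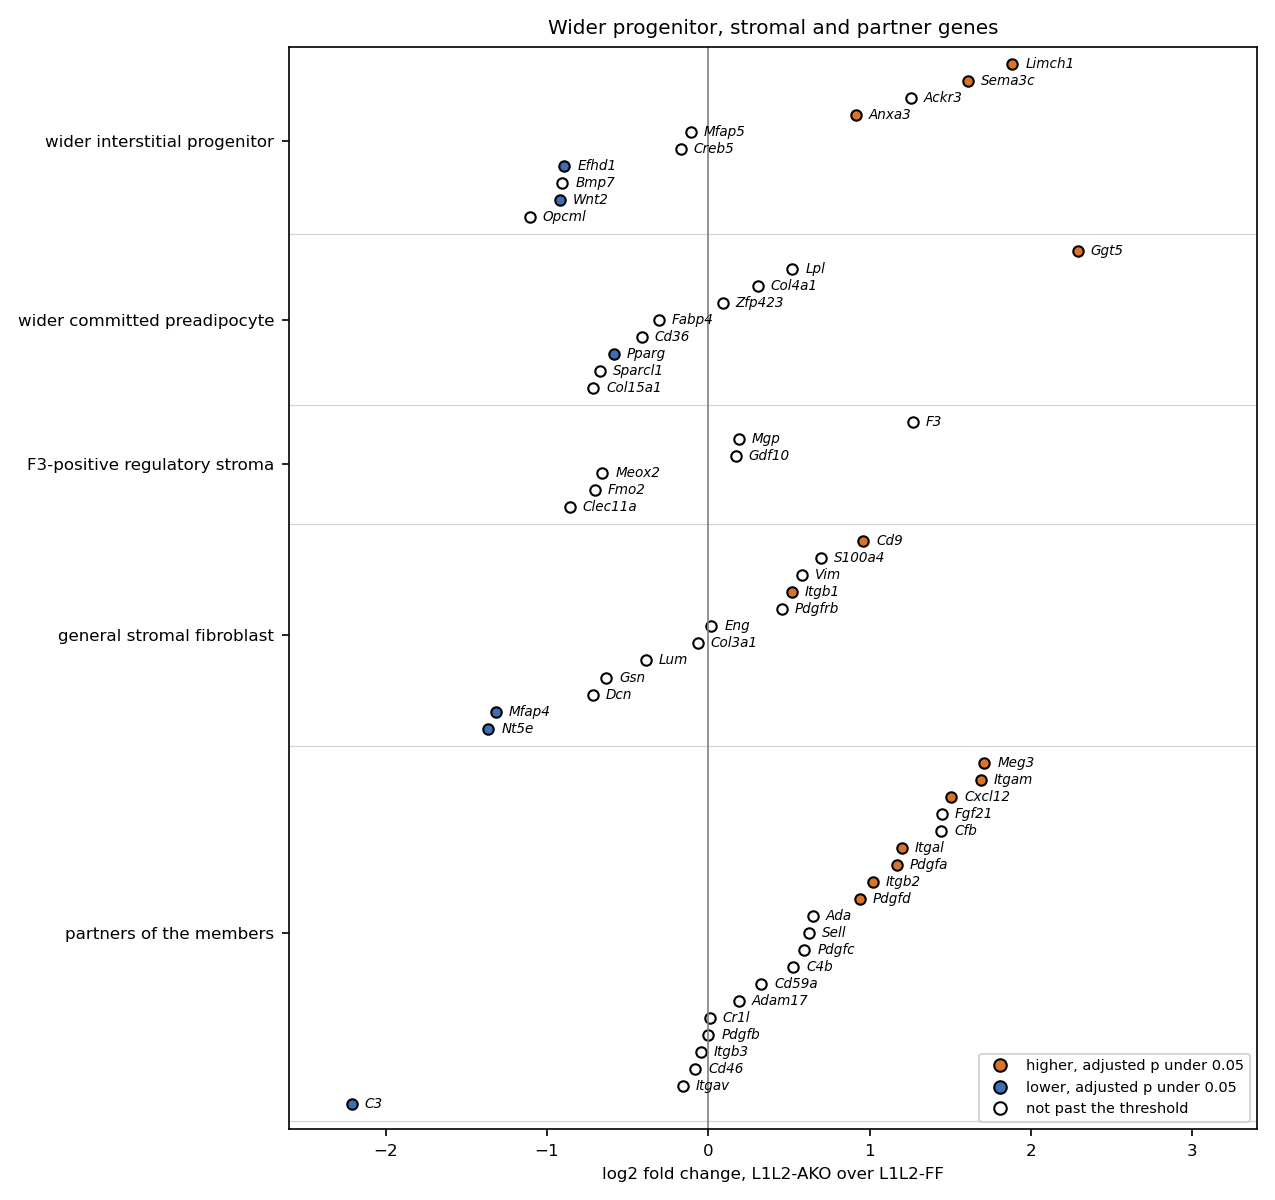
Fitted log2 fold change (horizontal axis, libraries labelled L1L2-AKO over L1L2-FF) of the 58 genes of 5 lists, 1 point per gene, grouped by list on the vertical axis; orange is higher and blue lower at an edgeR adjusted p under 0.05, and open points did not pass. The interstitial list has points past the threshold on both sides of 0, and 7 of the 21 partner genes are orange, with C3 the 1 in blue.

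The partners of the markers (their ligands, substrates, binding partners and neighbours) had 7 of 21 genes higher and 1 lower. *C3*, the complement protein whose convertases CD55 dismantles, fell from 234 ± 34.9 to 50.6 ± 8.90 CPM (-2.21, adjusted p = 0.000404). The complement genes *Cfb* and *C4b* of the same list did not fall with it. Their log2 fold changes were 1.44 (adjusted p = 0.0684) and 0.53 (adjusted p = 0.559), with *Cfb* at only 0.621 ± 0.275 CPM in L1L2-FF. *Pdgfa*, the ligand of PDGFRA, rose from 20.5 ± 2.00 to 46.1 ± 5.85 CPM (1.17, adjusted p = 0.00142), whereas *Pdgfra* was not distinguishable. The ratio of *Pdgfa* to *Pdgfra* counts was 0.480, 0.302 and 0.903 in L1L2-FF against 1.09, 1.10 and 1.57 in the libraries labelled L1L2-AKO, without overlap. *Pdgfd*, which signals mainly through PDGFRB, rose by 0.94 (adjusted p = 0.0375), a call lost without L1L2-FF replicate 1 or 3 or L1L2-AKO replicate 2 or 3 (adjusted p up to 0.125). *Cxcl12*, a chemokine that DPP4 cleaves, rose from 146 ± 46.3 to 416 ± 124 CPM (1.50, adjusted p = 0.0118), with an adjusted p of 0.0557 without L1L2-FF replicate 1.

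The integrins that bind ICAM1 rose. These were *Itgam* (1.69, adjusted p = 0.000531), *Itgal* (1.20, adjusted p = 0.0179) and *Itgb2* (1.02, adjusted p = 0.0365). They are leukocyte genes, and the macrophage list rose with them, from a summed 263 to 528 CPM in L1L2-FF to 1001 to 1119 CPM in the libraries labelled L1L2-AKO. The part of leukocyte RNA in the integrin values was not tested. *Itgal* lost its call without L1L2-FF replicate 1 or L1L2-AKO replicate 2 or 3 (adjusted p up to 0.0753), and *Itgb2* in 5 of the 6 fits, all but that without L1L2-FF replicate 2 (up to 0.129).

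Other cell types moved between the genotypes beside the markers. All 11 of the macrophage genes rose, among them *Mrc1* (1.84, adjusted p = 0.00213) and *Lyz2* (1.08, adjusted p = 0.0164). In the fits without 1 library, *Csf1r*, *Cd68*, *Cd163* and *Ptprc* each lost the call in 1 to 3 (adjusted p up to 0.0904). Of 12 mature adipocyte genes 0 rose and 6 fell, and their sum went from between 17280 and 19629 CPM to between 8336 and 11476 CPM. *Cfd* (adipsin) fell by 4.14 on the log2 scale (adjusted p = 0.000399), while *Plin4*, with *Cfd* one of the genes of the list with the most reads, had a log2 fold change of 0.00062 (adjusted p = 0.999). Of 10 endothelial genes 1 fell and 0 rose, with *Cdh5* at -0.29 (adjusted p = 0.532) and *Pecam1* at -0.47 (adjusted p = 0.279). Of 8 mural genes 3 fell and 1 rose, *Rgs5* at -1.22 (adjusted p = 0.0188) and *Notch3* at 0.90 (adjusted p = 0.0136). The mural sum was 930.05 to 1219.7 CPM in L1L2-FF and 565 to 844 CPM in the libraries labelled L1L2-AKO.

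Of 5 Schwann cell genes 3 fell, *Mbp* (-1.20, adjusted p = 0.0427) and *S100b* (-2.10, adjusted p = 0.00937) among them, and their sum was 206 to 413 CPM in L1L2-FF and 88.0 to 156 CPM in the libraries labelled L1L2-AKO. Of 8 lymphocyte genes 0 passed with edgeR, DESeq2 or limma-voom, and 0 had an unadjusted p under 0.05. Their sum was 7.73 to 23.2 CPM and 11.8 to 23.8 CPM, with *Cd79a* at 2.75 ± 1.40 and 3.26 ± 1.15 CPM and *Cd3g* at 1.90 ± 1.52 and 3.07 ± 1.60 CPM. Of 8 mesothelial genes 4 passed the filter on low counts, among them *Wt1*, which passed through the libraries labelled L1L2-AKO alone, so no count of calls is given. Their sum was 4.53 to 5.60 CPM and 4.92 to 9.01 CPM. *Wt1*, *Msln*, *Bnc1* and *Upk1b* were at a count of 0 in all L1L2-FF libraries, and *Lrrn4* and *Gpm6a* were at 3.97 ± 0.472 and 0.422 ± 0.0947 CPM there. Of 7 skeletal muscle genes 4 were tested and 0 passed with edgeR, 2 had an unadjusted p under 0.05, and DESeq2 called 2 lower and limma-voom 1. *Acta1* was at 8.25 ± 1.45 and 2.60 ± 2.21 CPM and *Mylpf* at 2.91 ± 0.679 and 1.51 ± 0.436 CPM, and the sum was 10.7 to 16.6 CPM and 2.76 to 8.76 CPM. *Lyz2* and *Rgs5* lost their calls without L1L2-FF replicate 1 or replicate 2 of L1L2-AKO (adjusted p up to 0.0767 and 0.0744), and *Notch3* without the latter (0.0576). *Mbp* lost its call in all of these fits but that without L1L2-FF replicate 1 (up to 0.130). Whether these cells contributed to the marker values was not tested.

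**Figure D5:**
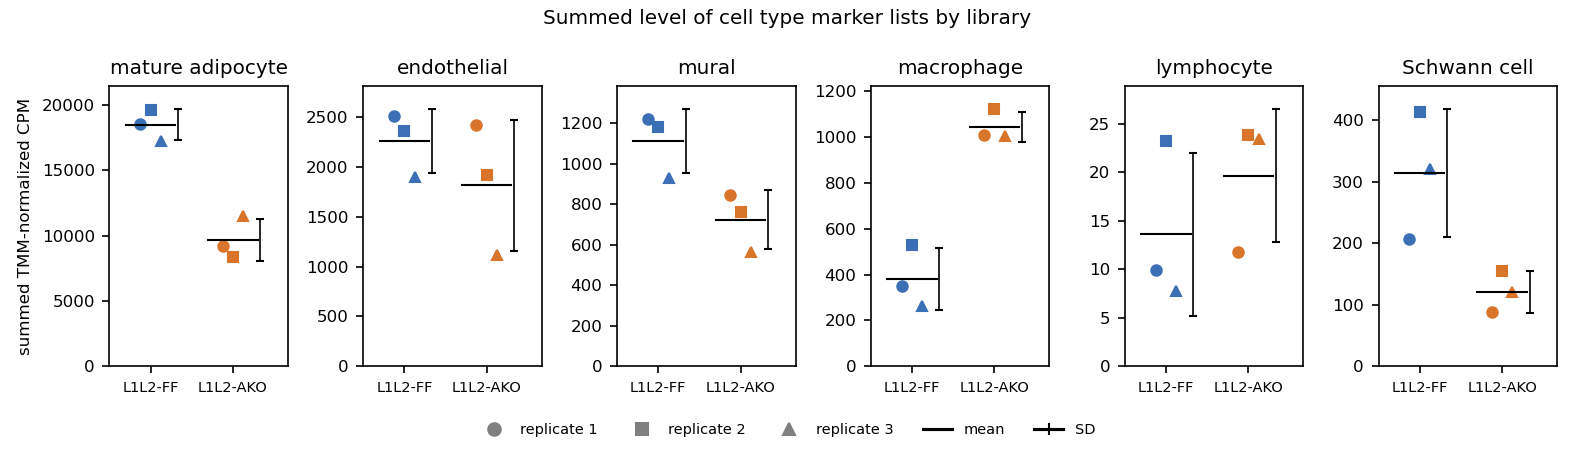
Summed TMM-normalized CPM of 6 cell type marker lists in each library (vertical axes, each starting at 0), with L1L2-FF in blue, the libraries labelled L1L2-AKO in orange, the line the mean and the bar the SD of 3 libraries. The mature adipocyte, mural and Schwann cell sums are lower and the macrophage sum higher in all 3 libraries labelled L1L2-AKO, and the endothelial and lymphocyte sums overlap.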

How the data were processed

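Genotypes and replicate numbers of the 6 libraries of floated adipocytes come from the titles that the submitters gave. Each library was a pool of 4 mice, so a p-value measures the spread between pools. The authors sequenced paired-end oligo(dT) libraries on a BGISEQ-500 and aligned them with HISAT2 (2.1.0) to mm10, and their notes also name StringTie (1.3.5). What the authors deposited is 1 table of whole-number counts by gene symbol, not normalized. The annotation, the counting program and its strand setting are not given in the sources used here. *Dpp4*, *Pi16*, *Cd55*, *Cd34*, *Pdgfra* and *Icam1* overlap an antisense gene in GENCODE M21, so reads of both partners may have been mixed.

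Genes were filtered with filterByExpr (minimum count 10, minimum total 15), which kept 15674 of 37384, and scaled by TMM. The genotypes were compared with edgeR (4.0.16) by the quasi-likelihood test in R (4.3.3), with Benjamini-Hochberg adjustment over all genes tested and a threshold of 0.05. Every adjusted p is from that test unless another tool is named. The standard error is the fold change over the root of the F statistic. DESeq2 (1.42.0), limma-voom (limma 3.58.1), edgeR's robust fit, other scalings and filters, a replicate block and fits without 1 library were alternatives. The edgeR, DESeq2 and voom steps were tested on simulated data. Chi-square comparisons of replicate counts gave 30.3 to 159 per degree of freedom, so no pair of libraries was counted as 1.

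Positions, exon lengths and shared 50-base stretches come from GENCODE M21 on the same build, in which 36888 symbols were found, and promoters from RefSeq (GRCm38.p6). Levels per kilobase use the union of a gene's exons. The markers and the 16 lists were chosen with earlier results of these data known. A gene of the Schwann cell list is not reported here and was left out of its count and sum. Named were all 10 markers, the most abundant pair of genes of each list, the largest changes past the threshold (up to 2 each way) in the wider lists, *Lats1* and *Lats2*, and the 5 genes most correlated with *Dpp4*. *Anxa3*, *Pdgfa*, *Pdgfd*, *Cxcl12*, *Itgal*, *Itgb2*, *Cfd*, *Adipoq* and the mesothelial genes at 0 were added with their values seen. So were *Cfb*, *C4b*, *Csf1r*, *Cd68*, *Cd163* and *Ptprc*.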

Additional observations from a re-analysis of the deposited data

How the results depend on the processing

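*Pi16* and *Cd55* stayed below 0 in all 16 alternatives and past the threshold in the 10 that kept all libraries. The number of markers called lower was 3 with DESeq2, with no filter on low counts and with the replicate block, 2 in the other alternatives with all libraries, and between 0 and 3 in the fits without 1 library, with 0 when either L1L2-FF replicate 1 or replicate 2 of L1L2-AKO was dropped. The number called higher was 0 throughout. The log2 fold change of *Dpp4* ranged from -0.071 to 0.46 without 1 library, that of *Ly6a* from -0.14 to 0.14 and that of *Pdgfra* from -0.48 to 0.16, so their signs rest on single libraries. In the 5 wider lists 20 genes were called higher with DESeq2, and without 1 library 7 to 13 were called higher and 3 to 7 lower. Over all genes 2580 were called, 3370 with DESeq2 and 1281 to 2845 without 1 library, fewest without L1L2-AKO replicate 2, L1L2-FF replicate 1 (1290) or L1L2-AKO replicate 3 (1374). The cause was not tested.

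The replicate numbers were shared by the genotypes but not shown to pair the libraries: deviations from the group means correlated at 0.188, 0.255 and -0.05 across same-numbered libraries, and L1L2-FF replicate 3 correlated best with L1L2-AKO replicate 1 (0.211). With the replicate block 2514 genes were called, and *Dlk1* passed (log2 fold change -0.71, adjusted p = 0.0150). *Dpp4* had the fewest counts of the markers, 262 to 515 per library.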

Other observations

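The genes whose log2 CPM followed *Dpp4* most closely over the 6 libraries, among 9956 genes with a mean log2 CPM of at least 3, were *Lamb3* (Pearson's r = 0.998), *Chic2* (0.992), *Zfp738* (0.983), *Klhdc8b* (0.982) and *Rab11fip2* (0.979). *Lamb3*, a laminin chain, was at 8.11, 13.9 and 8.31 CPM in L1L2-FF and at 7.84, 12.2 and 12.7 CPM in the libraries labelled L1L2-AKO. The correlations rest on 6 points that share library and depth, were picked as the highest of many and carry no test. All 5 genes overlapped between the genotypes, with log2 fold changes between 0.02 and 0.11. Both follow from the choice, since genes picked to track *Dpp4* over these 6 libraries must share its pattern.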
